A study of Homo sapiens with 6 samples.

Results

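The miRNAs miR-221 and miR-222 were followed through small RNA sequencing of the KPL4 line, which is an established line of human breast adenocarcinoma cells. Their members were found by name in the deposited count table: miR-221-3p, miR-222-3p, miR-221-5p and miR-222-5p, the arms of a pair of hairpins, 4 of 2656 mature miRNAs listed. All 4 passed the filter on low counts, as did 783 miRNAs in all. The 6 libraries fall into 2 groups of 3. In the first group the cells carried a knockout of ERβ (estrogen receptor β, the product of ESR2). In the second, ERβ knockout cells had received exogenous ERβ by transfection. The knockout is thus shared by all 6 libraries, and the presence of exogenous ERβ is what the labels say differs. No agent was added, and all cells grew with serum, insulin and hydrocortisone. Knockout cells with an empty vector are not analysed here, and neither the number of clones nor the ERβ isoform is given in the sources used here. Whether a difference below follows ERβ or some other difference between the cultures cannot be told apart. Nothing in the labels says that replicates came from separate cultures, and the p-values reflect the spread between these libraries only.

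As background, the hairpins of miR-221 and miR-222 are processed from a shared primary transcript, whose gene is MIR222HG. A mature miRNA guides Argonaute to messenger RNAs mainly through its seed, the bases just behind its 5′ end, and lowers their translation and stability. The 3p arms are the usual guides here. They are known to repress CDKN1B, which encodes the cell-cycle inhibitor p27, and ESR1, which encodes estrogen receptor α. In breast cancer they are known for high levels in tumours without estrogen receptor α and for a link to tamoxifen resistance.

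The mature sequences are shown because the guides act through the same seed while their 3′ parts differ. They are RefSeq sequences on GRCh38.p14, 5′ to 3′, with the seed (bases 2 to 8) in capitals. The RefSeq table used held 3 of the 4 members, and miR-221-5p is named only.
miR-221-3p: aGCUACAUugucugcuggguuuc
miR-222-3p: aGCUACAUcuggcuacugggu
miR-222-5p: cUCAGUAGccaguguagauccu
The guides were 23 and 21 bases long and identical over their first 8 bases. Over the 21 bases that could be compared without gaps they had the same base at 11 positions. No other mature miRNA in the table had the seed GCUACAU. Apart from this pair, the bases 2 to 7 were shared by 1 other entry, miR-187-5p, which had 0 counts in all 6 libraries. The seed of miR-222-5p was shared by 0 other entries.

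The hairpins are shown to place the arms, with the mature arms that the table lists in capitals. They lie on the minus strand at chrX:45746157-45746266 and chrX:45747015-45747124, with 748 bases between them. In GENCODE 29 both lie inside the long non-coding RNA gene MIR222HG (chrX:45745211-45770274, minus strand), in the intron of its transcript MIR222HG-201 and outside its exons.
MIR221: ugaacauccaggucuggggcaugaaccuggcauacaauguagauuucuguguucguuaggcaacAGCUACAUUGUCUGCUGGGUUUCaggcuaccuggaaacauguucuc
MIR222: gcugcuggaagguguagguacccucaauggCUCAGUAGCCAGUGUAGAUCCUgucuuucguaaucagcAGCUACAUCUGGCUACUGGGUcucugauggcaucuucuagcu

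Total counts were 10619000 to 12228519 in the knockout libraries and 10288415 to 14296902 in the libraries with ERβ. The knockout libraries are called S1, S2 and 3, since a pair of their columns carried the same number, and those with ERβ are called 1, 2 and 3. Knockout library S2 stood apart. As a measure of how far counts differ beyond sampling, chi-square over its degrees of freedom was taken between libraries. It was 307 and 331 between S2 and knockout libraries S1 and 3, against 14.8 between those and 12.2 to 21.2 among the libraries with ERβ. Against the libraries with ERβ it was 204 to 253 for knockout libraries S1 and 3, and 313 to 399 for S2. Library S2 thus lay further from its own group than S1 and 3 lay from the libraries with ERβ. Of the epithelial miR-200 family, all 5 members were abundant, with a summed level of 81540 to 96530 CPM in knockout libraries and 78990 to 83820 CPM in libraries with ERβ. CPM here are counts relative to the library total after TMM scaling, which aligns the bulk of miRNAs between libraries. Small RNA libraries do not read ESR2 messenger RNA, and no check of the labels on the receptor could be made.

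The fitted levels of all 4 members were 18.3 to 29.2% greater in ERβ knockout cells than in knockout cells with ERβ. The log2 fold changes, knockout over knockout with ERβ throughout, lay between 0.24 and 0.37. The 3p guides passed the test and the 5p arms did not.

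The guide miR-221-3p was the most abundant member. Its level was 10390, 8851 and 10605 CPM in knockout libraries S1, S2 and 3, against 8036, 7666 and 7796 CPM in libraries 1, 2 and 3 with ERβ. The groups did not overlap, and knockout library S2 lay nearest to the libraries with ERβ. The means were 9948 ± 957 CPM in knockout cells and 7833 ± 188 CPM in cells with ERβ (SD, n = 3 each), 27.0% higher in the knockout by the fitted fold. The log2 fold change was 0.34 ± 0.08 (SE; 95% interval 0.16 to 0.53), with a Benjamini-Hochberg adjusted p = 0.0136 by edgeR's quasi-likelihood test. That call was lost without knockout library S1 (adjusted p = 0.0513) and without library 1, 2 or 3 with ERβ (adjusted p = 0.0601, 0.0921 and 0.0760), while without knockout library S2 the log2 fold change was 0.42 (adjusted p = 2.54e-08 by edgeR).

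The guide miR-222-3p had the smallest relative spread of the members in knockout cells (a coefficient of variation of 2.42%, against 7.20 to 9.92% for the others). It stood at 713, 732 and 697 CPM in knockout libraries S1, S2 and 3, against 572, 551 and 536 CPM in libraries 1, 2 and 3 with ERβ. The groups did not overlap, and knockout library S2 was the highest of all, unlike for miR-221-3p. The means were 714 ± 17.2 CPM in knockout cells and 553 ± 18.1 CPM in cells with ERβ (SD, n = 3 each), 29.2% higher in the knockout by the fitted fold. The log2 fold change was 0.37 ± 0.07 (SE; 95% interval 0.21 to 0.53; edgeR adjusted p = 0.00463). Of the libraries left out in turn, leaving out library 2 with ERβ ended the call (adjusted p = 0.0585).

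The 5p arms are the passenger strands and were rarer. The level of miR-221-5p was 119.7, 101.4 and 122.2 CPM in knockout libraries S1, S2 and 3, against 87.8, 92.6 and 100.7 CPM in libraries 1, 2 and 3 with ERβ. The lowest knockout library, S2, and the highest library with ERβ, 3, were less than 1 CPM apart. The log2 fold change of 0.29 ± 0.11 (SE; 95% interval 0.05 to 0.53) did not pass (edgeR adjusted p = 0.0850).

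The other passenger, miR-222-5p, had 43.1, 41.5 and 47.6 CPM in knockout libraries S1, S2 and 3, against 36.9, 38.4 and 36.4 CPM in libraries 1, 2 and 3 with ERβ. The groups did not overlap, and their nearest values were knockout library S2 and library 2 with ERβ. The log2 fold change of 0.24 ± 0.10 (SE; 95% interval 0.02 to 0.46) did not pass (edgeR adjusted p = 0.112). Without knockout library S2 both passengers passed, miR-221-5p at a log2 fold change of 0.37 (adjusted p = 7.66e-05) and miR-222-5p at 0.28 (adjusted p = 0.00764).

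**Figure D1:**
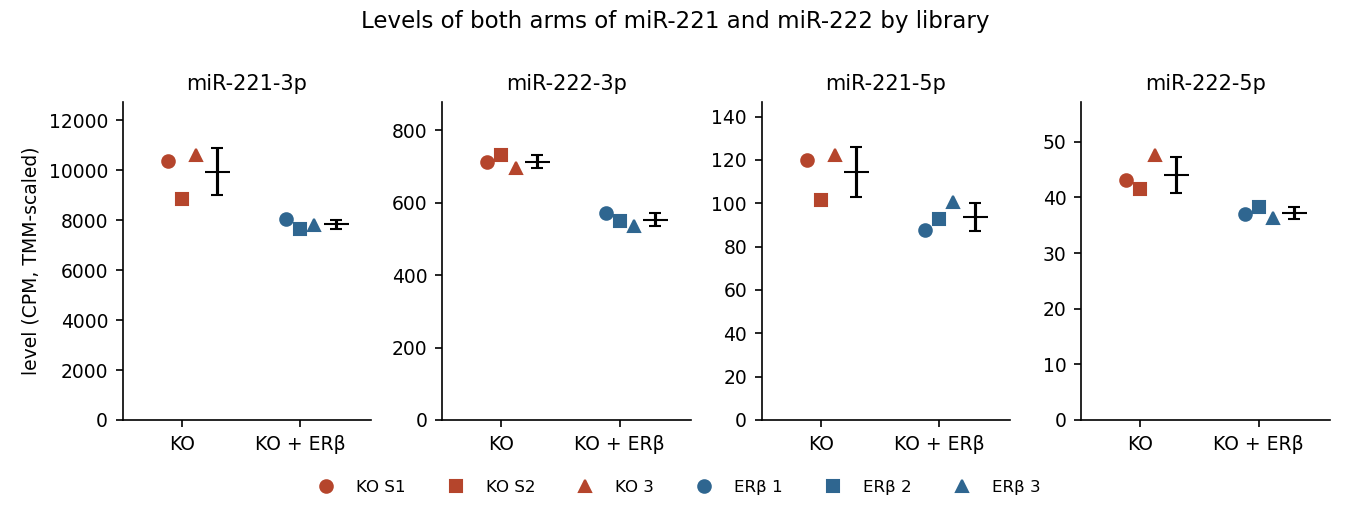
Level of each member (TMM-scaled CPM, axes from 0) in the knockout libraries (left in each panel) and the libraries with exogenous ERβ (right). Points are libraries and bars are the mean ± SD (n = 3 each): every knockout library lies above every library with ERβ for all 4 members, narrowly so for miR-221-5p.

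Members called higher in knockout cells were 2 of 4, where 104 of all 783 tested miRNAs were called higher (13.3%) and 77 lower (9.83%). Every knockout library lay above every library with ERβ for 4 of 4 members, and for 164 of the 783 (20.9%). The 4 members come from 1 transcript and are not independent of each other. Without knockout library S2 the call count was 4 of 4 members and 157 of all tested; it was 1 member without knockout library S1, without library 1 with ERβ or without library 3 with ERβ, and 0 without library 2 with ERβ, with 81, 58, 62 and 60 called higher over all tested. In size the members' changes were small: 313 tested miRNAs had a larger absolute log2 fold change than miR-221-3p and 297 a larger one than miR-222-3p. The median log2 fold change of all miRNAs called higher was 0.69.

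**Figure D2:**
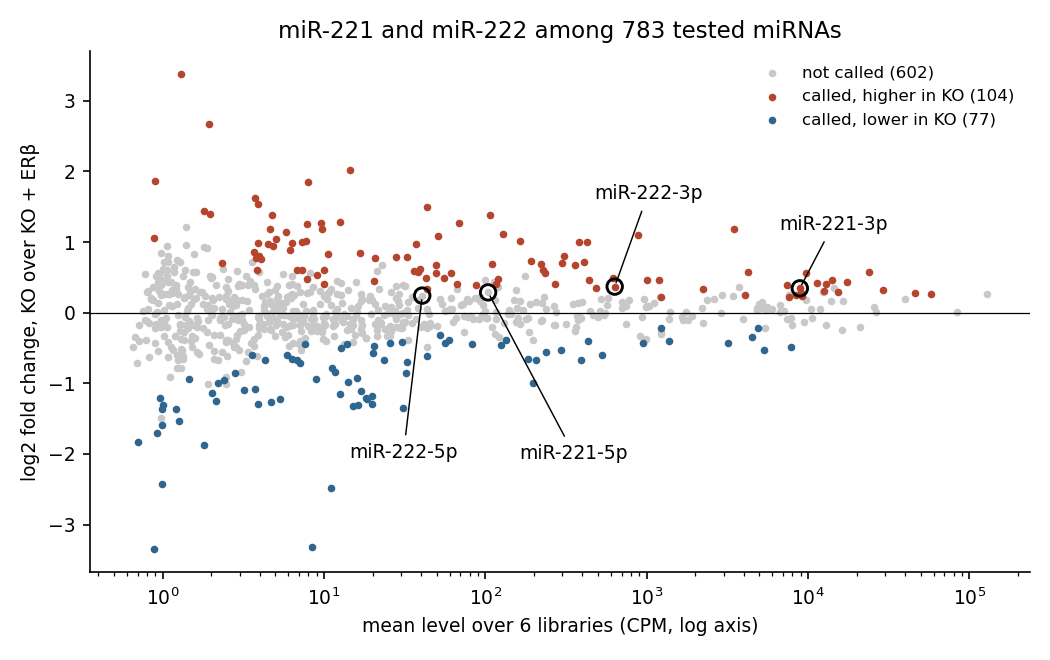
Mean level over the 6 libraries (CPM, log axis) against the log2 fold change, knockout over knockout with ERβ, for the 783 tested miRNAs, coloured by edgeR's call at an adjusted p under 0.05. The 4 circled members lie between 0.24 and 0.37 on the vertical axis, the guides among the miRNAs called higher and the passengers among those not called.

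The members' changes moved with the scaling between libraries. TMM factors were 0.926 to 0.990 in knockout libraries and 1.04 to 1.08 in libraries with ERβ, so TMM raised the knockout levels relative to plain totals. Scaled by library totals alone, miR-221-3p had a log2 fold change of 0.18 (edgeR adjusted p = 0.0739) and miR-222-3p at 0.21 (edgeR adjusted p = 0.0741), and neither passed. With upper-quartile factors miR-222-3p passed at 0.26 (edgeR adjusted p = 0.0345) and miR-221-3p did not at 0.23 (edgeR adjusted p = 0.0604). Those scalings shift the median of all tested miRNAs, from 0.01 with TMM, by -0.15 and -0.11. Set against the median of all tested miRNAs, miR-221-3p was 0.33 higher under all 5 scalings and miR-222-3p 0.35 to 0.36 higher. The passengers were 0.27 to 0.28 higher (miR-221-5p) and 0.23 higher (miR-222-5p) on the same footing. A change of scaling moves nearly all miRNAs by about the same amount, which subtracting the median takes out. The steadiness of these values was therefore set in advance and does not bear on whether a call holds. The members held 1.04, 0.962 and 1.06% of all counts in knockout libraries S1, S2 and 3, against 0.942, 0.873 and 0.883% in libraries 1, 2 and 3 with ERβ, which is the same scaling as by library totals. This share was 0.12 percentage points higher in knockout cells, and the groups did not overlap (exact two-sided permutation test, p = 0.10, the smallest that 3 against 3 allows).

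**Figure D3:**
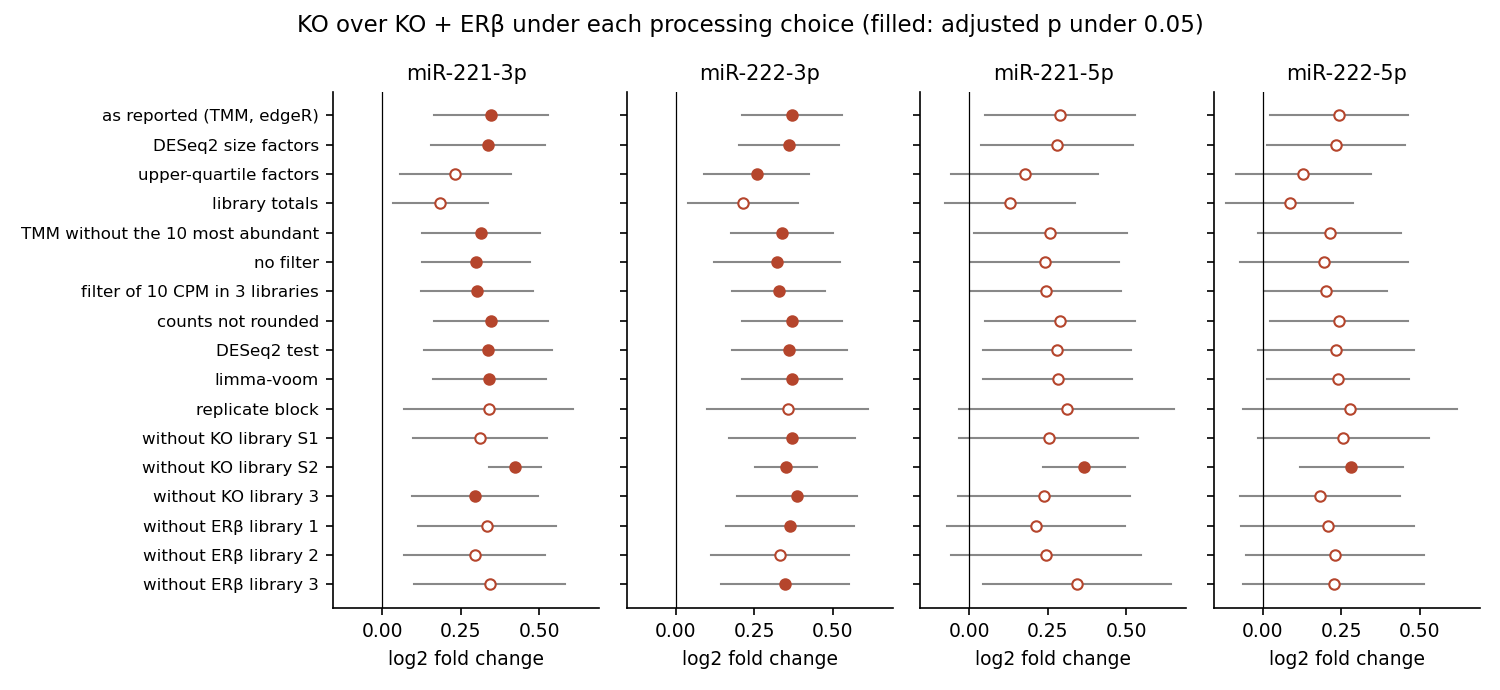
Log2 fold change of each member, knockout over knockout with ERβ, with its 95% interval under each scaling, filter, test and left-out library. Filled points passed at an adjusted p under 0.05: all points lie above 0, the lowest with library totals, and the passengers are filled only without knockout library S2.

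In order of level the members stood as miR-221-3p, miR-222-3p, miR-221-5p and miR-222-5p in all 6 libraries, with no overlap between neighbours. By counts, miR-221-3p ranked 25 to 30 among all listed miRNAs in knockout libraries and 32 to 35 in libraries with ERβ. Its neighbours by mean CPM were miR-9-3p above and miR-203a-3p below. For miR-222-3p, ranked 98 to 101 in knockout libraries and 102 to 106 with ERβ, they were miR-151a-5p and miR-342-3p. Of these neighbours, miR-9-3p, miR-203a-3p and miR-342-3p were themselves called higher in knockout cells, at log2 fold changes of 0.28, 0.25 and 0.49. miR-151a-5p was not called at 0.07. The passengers ranked 178 to 195 (miR-221-5p, between miR-767-5p and miR-1301-3p) and 233 to 248 (miR-222-5p, between miR-548e-3p and miR-301b-3p). Beside the passengers, miR-767-5p was called higher at 1.39, and the other neighbours were not called. Ligation and amplification efficiencies differ between sequences, so the order of counts need not be the order of molecules in the cell.

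Ratios within a library need no scaling and compare the members directly. In knockout libraries S1, S2 and 3 there were 86.8, 87.3 and 86.8 counts of miR-221-3p for each of miR-221-5p, against 91.6, 82.8 and 77.4 in libraries 1, 2 and 3 with ERβ. The knockout ratios sat within the range of those with ERβ and were much closer together. The mean log2 ratio was 6.44 ± 0.005 in knockout cells and 6.39 ± 0.12 in cells with ERβ (SD, n = 3 each; exact permutation p = 0.70).

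For miR-222 the ratio of 3p to 5p counts was 16.5, 17.6 and 14.7 in knockout libraries S1, S2 and 3, against 15.5, 14.4 and 14.7 in libraries 1, 2 and 3 with ERβ. The groups overlapped. The mean log2 ratio was 4.02 ± 0.14 in knockout cells and 3.89 ± 0.06 in cells with ERβ (SD, n = 3 each; exact permutation p = 0.30). The arm ratios thus differed between groups by 0.05 and 0.13 log2 units, while the median absolute difference over the 209 miRNA names with both arms tested was 0.165. Of those names, 167 had a larger difference than miR-221 and 120 a larger one than miR-222.

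Between the hairpins, the counts of miR-222-3p for each of miR-221-3p were 0.0686, 0.0827 and 0.0658 in knockout libraries S1, S2 and 3, against 0.0711, 0.0718 and 0.0687 in libraries 1, 2 and 3 with ERβ. Knockout library S2 was the highest and knockout library 3 the lowest, so the knockout values enclosed those with ERβ. The mean log2 ratio was -3.80 ± 0.18 in knockout cells and -3.83 ± 0.03 in cells with ERβ (SD, n = 3 each; exact permutation p = 1.0). For the passengers, the mean log2 ratio of miR-222-5p to miR-221-5p was -1.37 ± 0.09 in knockout cells and -1.33 ± 0.12 in cells with ERβ (SD, n = 3 each; exact permutation p = 0.50). Adjusted over the 5 values tested this way, the p-values were 0.50 to 1.0. A p that misses the threshold does not show that the ratios were equal.

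**Figure D4:**
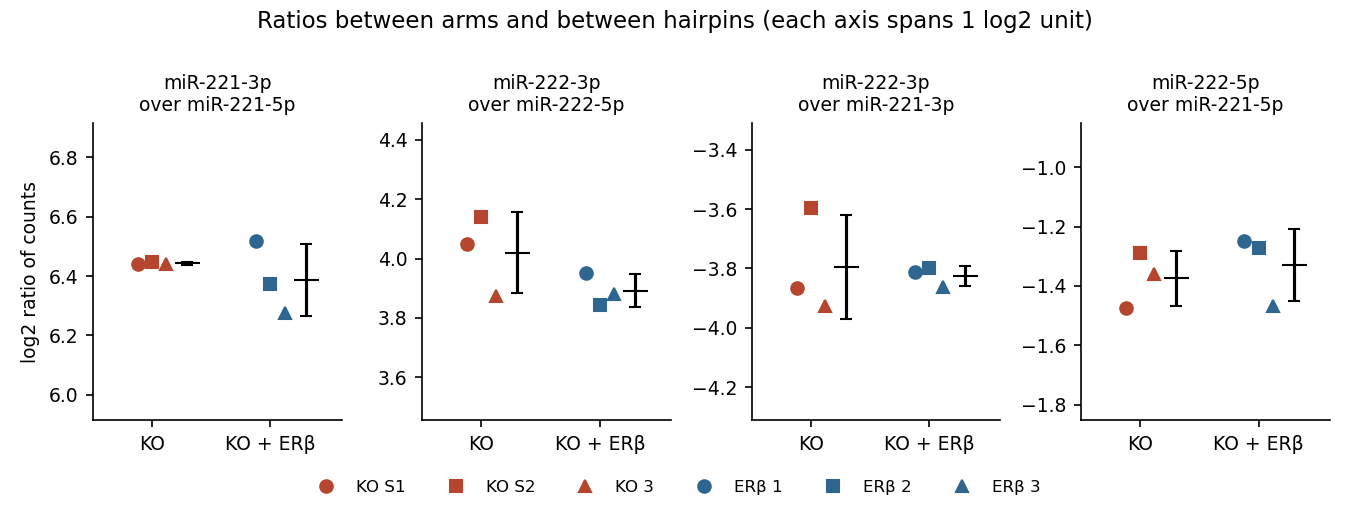
Log2 ratio of counts between arms of 1 hairpin (left pair of panels) and between the hairpins (right pair) in each library, knockout left and knockout with ERβ right, with mean ± SD (n = 3 each). The groups overlap in all 4 panels, and knockout library S2 (square) is the highest point in the ratio of miR-222-3p to miR-221-3p.

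Known targets of the guides are not measured here. The sites are shown because the pair was described for its action on ESR1 and CDKN1B. The motif ATGTAGC, complementary to the shared seed, was searched on the sense strand of the longest annotated 3′ untranslated region of each gene (GENCODE 29, GRCh38). It occurred 1 time in the 4308 bases of ESR1 (chr6:152101205-152101233, plus strand) and 2 times in the 1344 bases of CDKN1B (chr12:12721214-12721242 and chr12:12721287-12721315, plus strand). Each match was followed by A, and capitals mark it.
ESR1: tgacagacaatcttATGTAGCaaagatta
CDKN1B: tctaaaagcgttggATGTAGCattatgca
CDKN1B: agtttttaccttttATGTAGCacataaac
Of 1779 genes whose untranslated region was at least as long as that of ESR1, 20.3% held the motif in a stretch of that length. For the length of CDKN1B it was 6.46% of 8375 genes. A match is a description and not a measured site.

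Other miRNAs reported to target ESR1 were read from a list of 12, of which 9 were tested. Of these 4 were higher and 1 lower in knockout cells, where 13.3% of all tested miRNAs were higher and 9.83% lower. The list holds both guides, and of its other 7 tested members 2 were higher and 1 lower. The median log2 fold change of all 9 was 0.34, which is the value of miR-221-3p itself, against 0.01 over all tested. Among the other 7 the middle value was 0.07, that of miR-19b-3p. Beside miR-221-3p and miR-222-3p, miR-20b-5p of the X-linked miR-106a cluster was higher by a log2 fold change of 1.00 ± 0.08 (SE; edgeR adjusted p = 3.74e-05), at 570 ± 32.6 CPM in knockout cells and 284 ± 4.67 CPM in cells with ERβ (SD, n = 3 each). miR-22-3p, a repressor of estrogen receptor α, was higher by 0.46 ± 0.07 (edgeR adjusted p = 0.00140), at 1382 ± 53.4 CPM in knockout cells and 1006 ± 35.1 CPM in cells with ERβ. miR-18a-5p of the miR-17/92a cluster was lower, at 159 ± 27.5 CPM in knockout cells and 252 ± 8.23 CPM in cells with ERβ, a log2 fold change of -0.67 ± 0.13 (edgeR adjusted p = 0.00445). These 3 kept their calls in all 16 alternatives, unlike the miR-221 and miR-222 guides.

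The other tested members of the list did not pass. miR-18b-5p, with the seed of miR-18a-5p, stood at a log2 fold change of 0.39 ± 0.20 (SE; edgeR adjusted p = 0.198). miR-19a-3p was at -0.28 ± 0.14 (edgeR adjusted p = 0.187). It passed as lower at -0.44 on library totals, at -0.32 with no filter and at -0.43 without knockout library S1 (edgeR adjusted p = 0.0277, 0.0122 and 0.0303), and was at -0.13 without knockout library S2. miR-193b-3p was at -0.10 ± 0.17, and between -0.30 without knockout library S2 and -0.0036 without knockout library 3. miR-19b-3p was at 0.07 ± 0.11 with TMM, at -0.046 after upper-quartile scaling, at -0.095 with library totals and at -0.040 without knockout library S1. Without knockout library S2 it passed as higher at 0.18 (edgeR adjusted p = 0.00343). The muscle miRNA miR-206 had 0 to 1 counts per library, miR-302c-3p had 0 in every library and miR-145-5p 0 to 6, so these 3 were not tested. The list had 2 members higher without library 2 with ERβ, and 2 lower without knockout library S1. With library totals it had 2 higher and 2 lower.

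The tested members that passed are printed beside the guides to show that none of them shares their seed (capitals, RefSeq, GRCh38.p14).
miR-20b-5p: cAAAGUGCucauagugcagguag
miR-22-3p: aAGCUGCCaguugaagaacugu
miR-18a-5p: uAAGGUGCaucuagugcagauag

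Of 6 miRNAs reported to target CDKN1B, all were tested, 4 were higher in knockout cells and 0 lower, beside 13.3% and 9.83% of all tested. Without the guides it was 2 of 4 higher. The median of their log2 fold changes was 0.35, against 0.01 over all tested. Beside the guides these were miR-24-3p (0.39 ± 0.07, SE; edgeR adjusted p = 0.00264) and miR-181a-5p (0.35 ± 0.08; edgeR adjusted p = 0.0145). miR-24-3p stood at 8412 ± 494 CPM in knockout cells and 6399 ± 86.4 CPM in cells with ERβ (SD, n = 3 each). miR-24-3p lost its call with library totals and with the libraries' column numbers as a replicate block, and miR-181a-5p in 6 of 16 alternatives, among them each that left out a library with ERβ. miR-148a-3p was at 0.36 ± 0.12 (edgeR adjusted p = 0.0592), and passed at 0.49 without knockout library S2 (edgeR adjusted p = 5.98e-08), with no filter and by DESeq2's test. The most abundant of the list, miR-196a-5p, was at 0.08 ± 0.09 with TMM, at -0.033 with upper-quartile factors and at -0.080 on library totals, and did not pass under any of the 3. It was at 0.016 without knockout library 3, and passed as higher at 0.16 without knockout library S2 (edgeR adjusted p = 0.00469). Upper-quartile scaling left 2 of the list higher, and plain library totals left 0. It had 2 higher without library 1 or library 3 with ERβ, and 1 without library 2 with ERβ.

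**Figure D5:**
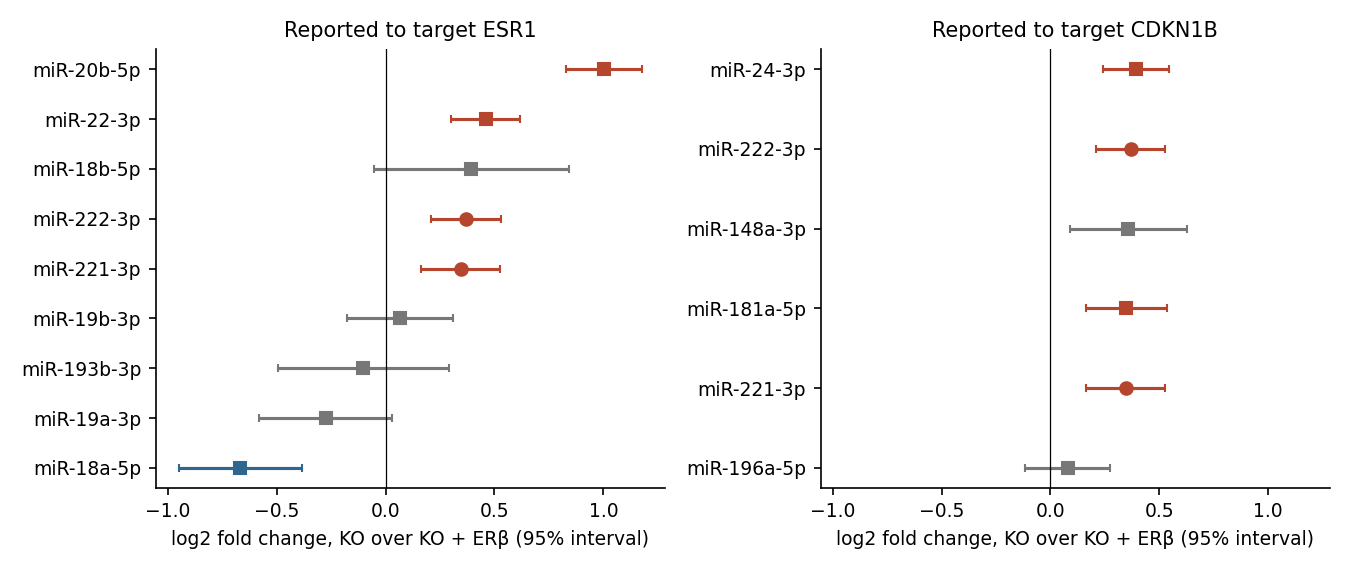
Log2 fold change, knockout over knockout with ERβ, with 95% interval for the tested miRNAs reported to target ESR1 (left) and CDKN1B (right). Red marks miRNAs called higher in knockout cells, blue lower and grey not called, with circles for the miR-221 and miR-222 guides: the guides sit at 0.34 and 0.37, below miR-20b-5p at 1.00 and close to miR-24-3p at 0.39.

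Of 8 miRNAs associated with basal-like breast cancer, a list that also holds the guides, 7 were tested. Of these 3 were higher and 1 lower in knockout cells (13.3% and 9.83% over all tested), and without the guides 1 was higher and 1 lower of 5. The median log2 fold change was 0.19 with the guides included, against 0.01 over all tested. Of the 5 others, miR-9-5p was at 0.19, miR-93-5p at -0.21 and miR-135b-5p at -0.37, none of them called. The middle value of those 5 was -0.21, below the median over all tested. The third higher one was miR-146a-5p, which dampens NF-κB signalling, at 1.50 ± 0.10 (SE; edgeR adjusted p = 3.34e-05), and the lower one was miR-18a-5p. The list had 1 higher with library totals and 1 higher without library 2 with ERβ, and 2 lower without knockout library S2.

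Markers of other cell types were read because miR-221 and miR-222 are also abundant in endothelial and stromal cells. Of 14 such miRNAs 8 were tested, with 3 higher and 0 lower in knockout cells, where 13.3% of all tested were higher and 9.83% lower. These were the endothelial miR-126-3p (0.30 ± 0.06, SE; edgeR adjusted p = 0.00795), the smooth muscle and stromal miR-143-3p (1.15 ± 0.15; edgeR adjusted p = 5.45e-04) and the muscle miRNA miR-1-3p (2.67 ± 0.33; edgeR adjusted p = 4.67e-04). The other endothelial marker, miR-126-5p, did not pass at 0.08 ± 0.09 (edgeR adjusted p = 0.612), and its groups overlapped. Also not called were miR-451a at 0.80, miR-142-3p at -0.02, miR-142-5p at -0.006 and miR-122-5p at -0.33. miR-126-3p was abundant in all libraries, at 16796 ± 224 CPM in knockout cells and 13690 ± 581 CPM in cells with ERβ (SD, n = 3 each), whereas miR-143-3p stood at 8.0 ± 0.65 CPM in knockout cells and 3.60 ± 0.12 CPM in cells with ERβ. Rarer still, miR-1-3p stood at 3.35 ± 0.53 CPM in knockout cells and 0.52 ± 0.23 CPM in cells with ERβ, where it had 4 to 11 counts per library. It passed the filter on low counts only through the knockout libraries, with 37, 34 and 38 counts in S1, S2 and 3. Its place among the tested markers thus depended on its being higher there, and its call is no independent support. The summed level of the tested markers was 21670 to 23230 CPM in knockout libraries and 18170 to 20070 CPM in libraries with ERβ. Nearly all of this sum came from the arms of miR-126. Its 5p arm stood at 5748 ± 593 CPM in knockout cells and 5456 ± 371 CPM in cells with ERβ. The markers not tested were near the floor. The neuronal miR-124-3p had less than 1 count in every library, and the blood miRNAs miR-223-3p and miR-150-5p 3 to 15 and 1 to 11. The stromal miR-145-5p, listed with miR-143-3p, had 0 to 6 counts per library. The muscle miRNAs miR-133a-3p and miR-206, listed with miR-1-3p, had 2 to 8 and 0 to 1. The part of these markers in the levels of miR-221 and miR-222 was not tested. The labels name KPL4 cells alone for all 6 libraries, so these markers are not read here as amounts of other cell types. Within the line, fewer cells with a miRNA and less of it per cell cannot be told apart in such bulk libraries. Of the 5 epithelial markers 2 were higher and 0 lower, beside 13.3% and 9.83% of all tested. The higher ones were miR-200c-3p (0.31 ± 0.07 SE, edgeR adjusted p = 0.0123) and miR-141-3p (0.33 ± 0.09, edgeR adjusted p = 0.0295). Those not called were miR-200b-3p at 0.25, miR-200a-3p at 0.008 and miR-429 at -0.07. None of the 5 was called higher with upper-quartile factors, with plain totals, with the replicate block or without library 1, 2 or 3 with ERβ, and 1 was called lower with plain totals. Without knockout library S1 or 3 it was 1 higher, and without knockout library S2 it was 4.

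The tested miRNAs most like the guides in pattern were ranked by the mean of their Pearson correlations of log2 CPM with miR-221-3p and with miR-222-3p over the 6 libraries. Among the 386 others averaging at least 10 CPM, the highest were miR-10a-5p, a HOX-cluster miRNA (mean correlation 0.958), miR-363-3p of the miR-106a cluster (0.957), miR-449a, a relative of miR-34 (0.957), miR-708-5p (0.955) and miR-23a-3p (0.953). With 2 groups and 6 libraries such a value mostly reads the difference between groups and the shared scaling. All 5 were themselves called higher in knockout cells (13.3% over all tested), from a log2 fold change of 0.24 for miR-23a-3p to 2.02 for miR-708-5p. These calls largely follow from ranking by likeness to guides that are higher there, and are no separate result.

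The promoter of the host gene is shown because all 4 members come from its transcript. It covers 250 bases before to 50 after the RefSeq start of MIR222HG (chrX:45770218-45770517, minus strand, GRCh38.p14). The full estrogen response element GGTCANNNTGACC was not found in this window, on either strand, and occurred in 0.0570% of 35116 promoter windows of the same length. The single site GGTCA, which is part of the full element, was searched on both strands and found 1 time, in capitals, at position -55 from the start. At least 1 single site was present in 37.4% of the windows. The AP-1 motif TGANTCA, on both strands, was not found here and was present in 7.71% of windows.
MIR222HG: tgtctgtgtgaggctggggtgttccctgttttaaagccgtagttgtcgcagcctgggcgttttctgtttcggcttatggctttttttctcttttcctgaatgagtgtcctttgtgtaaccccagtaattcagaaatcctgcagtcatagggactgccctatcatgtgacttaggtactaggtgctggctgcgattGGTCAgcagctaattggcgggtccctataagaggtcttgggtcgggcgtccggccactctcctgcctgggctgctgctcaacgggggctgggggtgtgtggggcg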

How the data were processed

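Per the labels' protocols, a QIAseq miRNA kit for Illumina and a TaqMan reverse transcription kit are named. Per the submitters' processing notes, FastQC and Trim Galore (no versions) and the build GRCh38 are named. Aligner, counter, miRNA annotation and any use of unique molecular identifiers: not given in the sources used here. Expected counts per mature miRNA were deposited by the authors. Of these 6.33 to 7.27% per library are not whole, while all 24 values of the 4 members are.

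Columns were assigned to groups by name. A pair of knockout columns carry the number 1 and could be placed in their group only. The 6 columns were all used. Expected counts were rounded and tested with edgeR 4.0.16 under R 4.3.3 (filterByExpr, minimum count 10 and minimum total 15, TMM, robust quasi-likelihood test, Benjamini-Hochberg over 783 miRNAs at 0.05) in 1 fit of all libraries without covariates. Over all tested miRNAs 269 had an unadjusted p under 0.05. Standard errors are the absolute log2 fold change divided by √F. The test was tried on simulated counts. Ratios and shares used unrounded counts and exact permutation tests. At these depths 3 counts correspond to 0.201 to 0.305 CPM. Counting error alone was 0.294 to 0.335% of the count of miR-221-3p and 4.17 to 4.94% of that of miR-222-5p. Such figures cover counting error only.

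Alternatives used DESeq2 1.42.0, limma 3.58.1 (voom), other scalings and filters, unrounded counts, a replicate block and each library left out. Figures were drawn with matplotlib 3.10.9. The members and lists were chosen with earlier results of these data known. The rule named the 4 members, all tested miRNAs of the ESR1 and CDKN1B lists, called miRNAs of the other lists, sharers of the guide seed, the 5 most similar miRNAs and the neighbours by level. Some uncalled miRNAs of the other lists are given beside the called ones.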

Additional observations from a re-analysis of the deposited data

How the results depend on the processing

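The direction of all 4 members (higher in knockout cells) held in all 16 alternatives. Their calls depended on the scaling and on single libraries. miR-221-3p kept its call in 9 of 16 alternatives and miR-222-3p in 13 of 16. miR-221-3p was at 0.23 after upper-quartile scaling and 0.18 with library totals, and miR-222-3p at 0.21 with library totals. With each library left out in turn the log2 fold change was 0.29 to 0.42 for miR-221-3p, 0.33 to 0.39 for miR-222-3p, 0.21 to 0.37 for miR-221-5p and 0.18 to 0.28 for miR-222-5p. Members called numbered 1 with upper-quartile factors, 0 on library totals and 0 to 4 with a library left out. The log2 ratio differences and the share of counts moved by less than the larger of the 2 group SDs in every alternative run for them. With a library left out the difference in log2 ratio was -0.0019 to 0.12 for the miR-221 arms, 0.068 to 0.20 for the miR-222 arms, -0.071 to 0.094 for miR-222-3p to miR-221-3p and -0.11 to 0.0047 for miR-222-5p to miR-221-5p. All but the miR-222 arm difference thus changed sign, without library 3 with ERβ, knockout library S2 and knockout library S1 in turn.

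The replicate block used the numbers in the column names (1, 1 and 3 in the knockout group, 1, 2 and 3 with ERβ). The number 2 belongs to library 2 with ERβ alone, so in this fit that library adds nothing to the group comparison. Leaving that library out with no block also left 0 members called. Calls of members lost with the block thus cannot be told apart from the loss of that library. With this replicate block miR-221-3p was at 0.34 (adjusted p = 0.113) and miR-222-3p at 0.36 (adjusted p = 0.0913), 0 members passed, and 50 miRNAs were higher and 38 lower over all tested. The correlations of deviations from the group means were -0.096, 0.134 and 0.123 between same-numbered libraries of different groups. Between knockout libraries S1 and S2, which carry the same number within a group, the correlation was -0.669. Deviations from the mean of a group of 3 are tied to each other, so correlations within a group lean negative. They were -0.521 to -0.470 among the libraries with ERβ and -0.689 between knockout libraries S2 and 3. The value for S1 and S2 thus cannot tell whether they share more than a number. The ESR1 list had 2 higher, the CDKN1B list 0 and the basal-like list 1 with the replicate block.

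Over all tested miRNAs 61 were higher and 146 lower with library totals, 123 lower with upper-quartile factors and 66 higher with the filter of 10 CPM in 3 libraries (fewer tested). With a library left out 58 to 157 were higher and 49 to 122 lower. The ESR1 list had 2 higher and 2 lower with library totals, 2 lower without a filter, and 2 to 5 higher and 1 to 2 lower with a library left out. The CDKN1B list had 2 higher with upper-quartile factors, 0 on library totals and 1 to 6 with a library left out. The basal-like list had 1 higher with library totals, 2 lower without a filter, and 1 to 4 higher and 1 to 2 lower with a library left out. Of other cell type markers 1 was higher with the filter of 10 CPM and 1 lower with library totals. Among the log2 fold changes of named miRNAs, those that reversed were miR-19b-3p (-0.046 after upper-quartile scaling, -0.095 with library totals, -0.040 without knockout library S1) and miR-196a-5p (-0.033 and -0.080 under the same scalings). The cause was not tested for any of these.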
